A study of Mus musculus with 12 samples.

Results

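Chemokines are small secreted proteins that direct the migration of leukocytes and stem cells through G protein-coupled receptors, and cells of the osteoblast lineage release several of them into the bone marrow. The 10 chemokine genes described here were taken by symbol from the count table: Cxcl10, Cxcl1, Cxcl5, Cxcl12, Ccl2, Ccl5, Ccl7, Ccl8, Cx3cl1 and Ppbp. All 10 were found among the 55291 symbols of the table. They were read in 12 RNA sequencing libraries of MC3T3-E1, an established wild-type mouse preosteoblast line, kept in medium with 10% serum and induced to differentiate toward bone 2 days after confluence, which is called day 0. Control libraries were taken at days 0, 14 and 21 of differentiation. The interferon (IFN) libraries were taken at the same days from cells given mouse IFN beta, a type I interferon, at 50 mg/L from the start of differentiation according to the labels. Each of the 6 groups had 2 libraries. Nothing in the labels says that these came from separate cultures, so the spread between them may be technical, and it is not stated whether the IFN libraries of day 0 had been exposed.

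Type I interferon acts through factors that include STAT2 and IRF9, which bind interferon-stimulated response elements in promoters, and Cxcl10 is a classical target. The inflammatory chemokines of the CC family (Ccl2, Ccl5, Ccl7 and Ccl8) draw monocytes and other leukocytes, and several are known targets of NF-kB. Cxcl1, Cxcl5 and Ppbp draw neutrophils, Cxcl12 holds hematopoietic stem cells in the marrow, and Cx3cl1 (fractalkine) is made as a membrane protein that proteases shed.

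The libraries held between 29772425 and 38908453 counts. Control replicates lay further apart than IFN replicates (biological coefficient of variation 0.392 against 0.0639). Over the 10 chemokine genes, the median SD of log2 CPM (CPM being read counts normalised to TMM-scaled library size) reached 1.14 in control at day 21 and at most 0.11 in any IFN group. Control replicate 2 of day 21 stood apart by the chaperone gene Hspa5 (25678 CPM, and at most 1828 CPM elsewhere), and control replicate 1 of day 0 had the highest level of CT010467.1 (21084 CPM). When both were dropped, the chemokine genes called went from 3 to 5 for IFN against control at day 14 (all genes from 2.29% to 15%), from 0 to 4 at day 21 (from 0.995% to 4.73%) and from 5 to 4 between day 0 and day 14 of the IFN arm (from 10.7% to 31.3%). Control replicate 1 of day 14 had the highest level of the hypoxia-induced gene Egln3 (88.9 CPM, against 16.8 CPM in its replicate). The 9 osteoblast markers were all detected, with a summed level of 8973 to 13855 CPM in control and 7321 to 7362 CPM with IFN at day 14, where 3 of them (Col1a1, Ibsp and Sparc) fell with IFN by edgeR (0.995% of all genes tested). Of the 10 macrophage and osteoclast markers 4 were tested, and their sum, mostly Ctsk, was 526 to 538 CPM with IFN at day 14, 332 to 492 CPM in control at day 14 and 222 to 238 CPM in the IFN libraries of day 0. Lyz2 fell in the IFN arm from 26.8 and 28.5 CPM at day 0 to 9.51 and 9.61 CPM at day 14 (log2 -1.53 ± 0.38, adjusted p = 0.0298 in edgeR), and Cd68 ranged from 1.23 to 11.05 CPM over the libraries. Ptprc and Adgre1 reached at most 0.123 and 0.0875 CPM, and Tyrobp was at 0. The 8 T and natural killer cell markers summed to at most 1.23 CPM, in control replicate 1 of day 0, where Gzmb had 34 counts, and Nkg7 was at 0. At day 14 that sum was 0.463 to 0.779 CPM with IFN and 0 to 0.301 CPM in control. The part of these differences in the results was not tested. In bulk RNA, fewer cells making a transcript and less of it per cell cannot be told apart.

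All 10 genes passed the filter on low counts, Ccl8 mainly through its control libraries of day 0 and Cxcl1 through control libraries of days 14 and 21. "Called" means an adjusted p below 0.05 in edgeR's quasi-likelihood test over the 17289 genes tested, and the words rose and fell are kept for called genes. Fold changes are log2 values with their standard errors (SE).

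At day 0 the libraries of the arms overlapped for Cxcl10, at 10.3 and 6.83 CPM in control and 8.89 and 7.22 CPM in the IFN libraries. The log2 difference was -0.09 ± 0.46 (95% interval -1.11 to 0.94). Of the 10 genes, 0 were called at day 0 in edgeR, where 0.00578% of all genes tested were called, 0 had an unadjusted p below 0.05 (2.2% of all genes) and 0 were called by DESeq2 (0.00578%). Both libraries of an arm lay above both of the other for 5 of the 10, against 36.2% of all genes tested. None of the 17 interferon signalling genes tested was called at day 0 by edgeR.

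At day 14, 3 of the 10 were called between the arms, where 2.29% of all genes tested were called. Cxcl10 and Ccl7 were higher with IFN (1.3% of all genes) and Cx3cl1 was lower (0.995%). The median log2 fold change of the 10 was 0.09, against -0.01 over all genes tested. For each of the 10 genes the libraries of the arms did not overlap, with IFN above control in 5 and below it in 5, and the same held for 55.7% of all genes tested. For Ccl8, with 2 counts in a library of each arm, that order comes from library size and is not resolved at this depth. Those above were Cxcl10 and the 4 CC chemokine genes, and those below were Cx3cl1, Cxcl12, Cxcl5, Ppbp and Cxcl1.

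**Figure D1:**
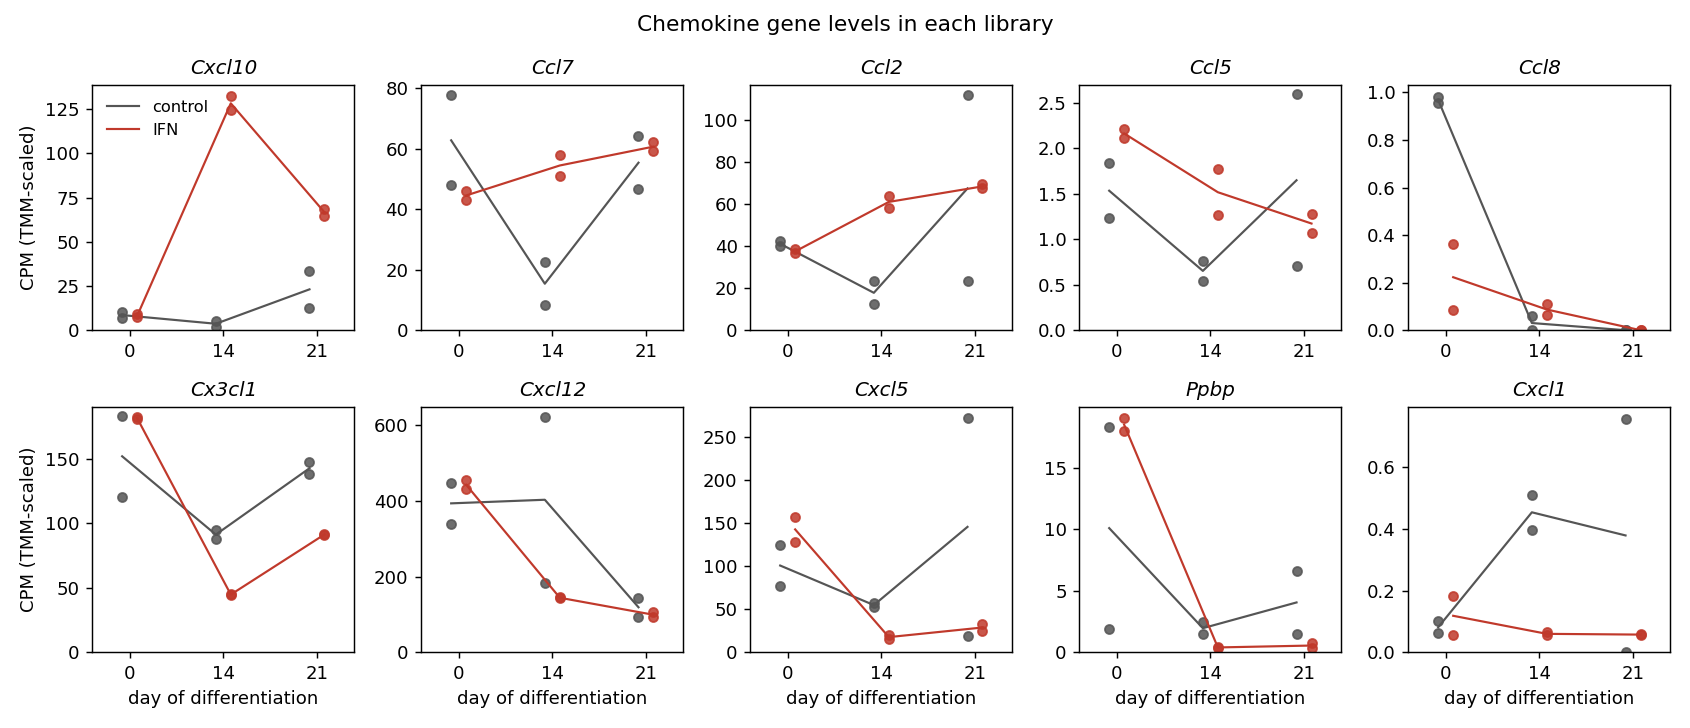
TMM-scaled CPM (linear axes from 0) of the 10 genes against day of differentiation, with a point for each of the 12 libraries and lines through the group means of the control (grey) and IFN (red) arms. At day 14 both IFN libraries lie above both control libraries for Cxcl10, Ccl7, Ccl2 and Ccl5, and below them for Cx3cl1, Cxcl12, Cxcl5, Ppbp and Cxcl1, while Ccl8 has 2 counts in a library of each arm.

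Cxcl10 encodes a ligand of the receptor CXCR3, which activated T cells carry. Its gene lies on chromosome 5, 92346638 to 92348889, on the minus strand (GRCm38, the mm10 build), and overlaps Art3, which itself reached at most 0.407 CPM. Its promoter is shown because Cxcl10 had the largest fold of the 10 between the arms at day 14. The RefSeq sequence runs from 250 bases before to 50 bases after the start site (GRCm38.p6, chr5:92348840-92349139, minus strand). Capitals mark the core of an interferon-stimulated response element (GAAA, any 2 bases, GAAA) and, after it, a kappaB motif (GGGA, any 2 bases, TTCC).
Cxcl10: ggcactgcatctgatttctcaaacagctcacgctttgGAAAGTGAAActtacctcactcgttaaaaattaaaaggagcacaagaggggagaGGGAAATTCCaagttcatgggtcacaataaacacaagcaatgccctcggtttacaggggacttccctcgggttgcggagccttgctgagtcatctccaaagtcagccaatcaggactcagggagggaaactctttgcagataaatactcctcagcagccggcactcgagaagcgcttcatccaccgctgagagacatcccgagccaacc
The response element starts at position -213 from the start site and the kappaB motif at -159. Motifs were searched on both strands, and of 32851 RefSeq promoters of this length 3.443% held the response element core, 1.467% the kappaB motif and 8.298% the GAS motif (TTC, any 3 bases, GAA). A match of letters is a description and not a bound site. Of the 10 genes 6 had a promoter in the RefSeq table (Cxcl10, Cxcl1, Cxcl12, Ccl8, Cx3cl1 and Ppbp). Among these, Cxcl10 had the response element core, Cxcl10 and Cxcl1 had the kappaB motif, and 0 had the GAS motif.

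Cxcl10 stood at 124 and 132 CPM in the IFN libraries of day 14 and at 2.04 and 5.24 CPM in the control libraries. The groups were far apart (log2 5.14 ± 0.54, adjusted p = 0.000849 in edgeR), and the call was kept whichever of the 12 libraries was dropped (log2 4.61 to 5.97). Within the IFN arm Cxcl10 rose between day 0 and day 14 (log2 3.99 ± 0.51, adjusted p = 0.00103 in edgeR), a call also kept each time. The IFN effect was larger at day 14 than at day 0 by 5.22 ± 0.69 on the log2 scale (adjusted p = 0.0116 in edgeR). That difference was no longer called when IFN replicate 1 or 2 of day 0 was dropped (adjusted p = 0.0797 and 0.108) or IFN replicate 2 of day 14 (0.0565).

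By day 21 the arms were closer. Cxcl10 was at 68.7 and 64.6 CPM with IFN, below both day 14 libraries of that arm, and at 12.5 and 33.7 CPM in control, above both control libraries of day 14. The log2 fold of IFN against control was 1.53 ± 0.46 (adjusted p = 0.204 in edgeR). Dropping control replicate 2 of day 21, the library with high Hspa5, gave a called fold of 2.399 (adjusted p = 0.0473). From day 14 to day 21 the IFN effect changed by -3.60 ± 0.67 on the log2 scale (adjusted p = 0.652 in edgeR, where 0% of all genes tested were called, 3 of the 10 and 7.61% of all genes had an unadjusted p below 0.05, and DESeq2 called 1 of the 10, Cxcl10, and 0.179% of all genes). Dropping control replicate 1 of day 21 gave -4.11 (called, adjusted p = 0.00194), which leaves the library with high Hspa5 as the control of that day.

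The neighbours of Cxcl10 on chromosome 5, between 92321347 and 92365485, are the chemokine genes Cxcl9 and Cxcl11. Cxcl9 was at 6.70 and 5.65 CPM with IFN at day 14 and at 0.061 and 0.633 CPM in control (log2 4.14 ± 0.96, adjusted p = 0.0554 in edgeR). It rose in the IFN arm between day 0 and day 14 (log2 3.998 ± 0.95, adjusted p = 0.0243 in edgeR). Cxcl11 had 45 counts in the IFN libraries of day 14 and 0 in the IFN libraries of day 0 and in the control libraries of day 14. With each of those groups set at 3 counts, Cxcl11 was at least 15.4-fold and at least 14.7-fold higher (counting error only). Cxcl11 passed the filter on low counts only through these IFN libraries of day 14, so its test adds nothing to the counts. Cxcl9, Cxcl10 and Cxcl11 were each highest in the IFN arm at day 14, with both libraries of day 21 between those of day 14 and day 0.

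The genes whose log2 CPM followed Cxcl10 most closely over the 12 libraries, by Pearson r, were Ogfr (0.97), Cox18 (0.96), Pnpt1 (0.95), Vnn1 (0.95) and Helz2 (0.94), out of 11527 genes whose log2 CPM averaged 1 or more. These libraries share arms and days, so the values describe a common pattern of groups.

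**Figure D2:**
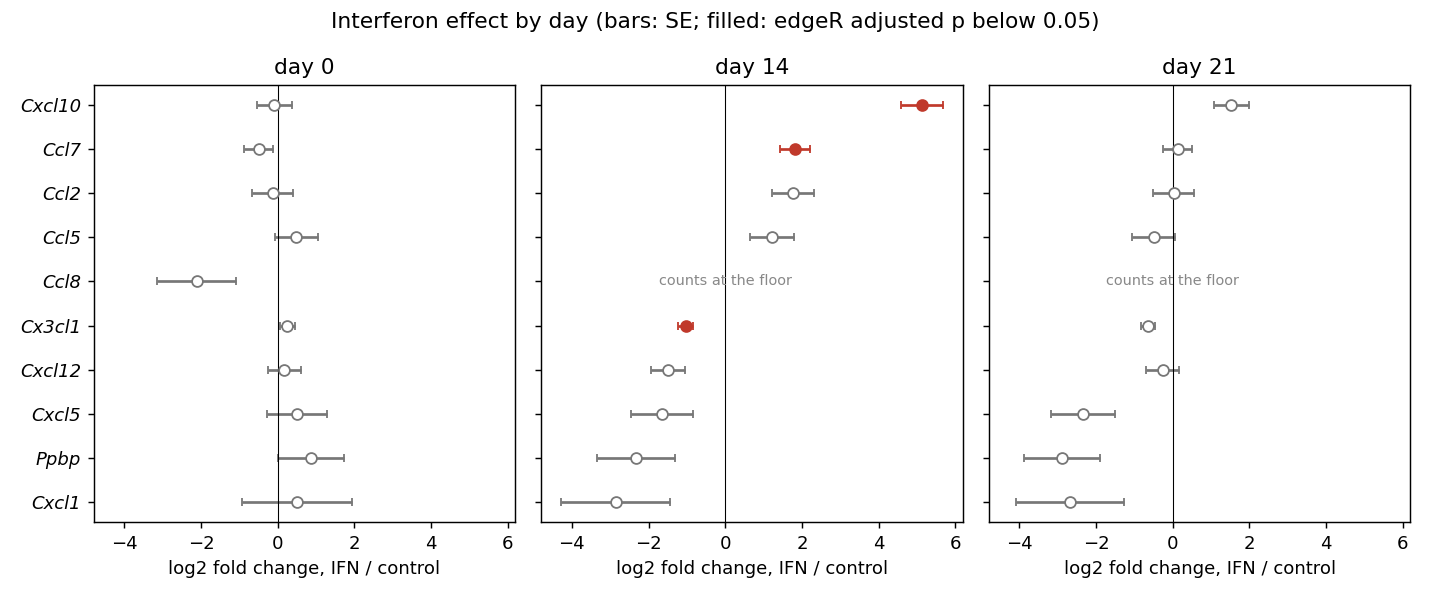
Log2 fold change of IFN against control at days 0, 14 and 21 for each gene (points, with bars of 1 SE). Filled points are called by edgeR: Cxcl10 (5.14), Ccl7 (1.82) and Cx3cl1 (-1.03) at day 14, and 0 genes at days 0 and 21. Ccl8 has no fold at days 14 and 21, where a group had at most 3 counts.

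Ccl7 and Ccl2 encode monocyte chemoattractants that bind CCR2, and they lie next to each other on chromosome 11 (Ccl2 at 82035571 to 82037453, Ccl7 at 82045712 to 82047525, both on the plus strand). Ccl7 was at 51.1 and 57.9 CPM with IFN at day 14 and at 8.24 and 22.5 CPM in control. With IFN it was at 46.1 and 43.0 CPM at day 0 and 59.2 and 62.2 CPM at day 21, so the control libraries of day 14 were the low ones. Ccl7 fell in control between day 0 and day 14, from 77.6 and 47.9 CPM (log2 -2.03 ± 0.40, adjusted p = 0.0285 in edgeR), where 2.38% of all genes were called and 1 of the 10. The same step with IFN was 0.29 ± 0.38 (adjusted p = 0.698 in edgeR with the spread shared by both arms). With only the groups compared this small step was called (log2 0.29, adjusted p = 0.000428), as were 58.7% of all genes tested. The change of the IFN effect from day 0 to day 14 was 2.32 ± 0.55 and not called (adjusted p = 0.13 in edgeR), though dropping control replicate 2 of day 14 gave 3.22 (adjusted p = 0.00821) and DESeq2 called it (0.00336).

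The difference in Ccl7 between the arms at day 14 (log2 1.82 ± 0.40, adjusted p = 0.0416 in edgeR) was not called when control replicate 1 of day 14 was dropped (log2 1.27, adjusted p = 0.14), nor when any of the 6 IFN libraries was (adjusted p up to 0.283). It was also lost without both control libraries that stood apart (0.0513), with only the groups compared (0.103) and with a replicate block (0.0635). The fall in control was lost when control replicate 1 of day 0 (log2 -1.631, adjusted p = 0.166), control replicate 1 of day 14 (log2 -1.48, adjusted p = 0.0917) or any IFN library was dropped (0.0559 or more). Without both libraries that stood apart its adjusted p was 0.119, and with only the groups compared 0.17.

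Ccl2 had the same arrangement at day 14, at 58.0 and 64.0 CPM with IFN and 12.3 and 23.2 CPM in control, with a fold that was not called (log2 1.78 ± 0.55, adjusted p = 0.153 in edgeR). Dropping control replicate 1 or 2 of day 21, which are not in this comparison, left log2 folds of 1.758 and 1.766. DESeq2 called the difference (adjusted p = 0.0139), with 5.77% of all genes tested. So did edgeR with only the groups compared (adjusted p = 0.04996, 4.27% of all genes) and without the filter on low counts (6.53e-10, 3.46%). At day 21 the control libraries of Ccl2 stood at 112 and 23.2 CPM, on either side of the IFN libraries (69.4 and 67.4 CPM). The log2 fold of 0.02 ± 0.53 at that day became 1.58 when the first was dropped (called, adjusted p = 0.00526) and -0.72 when the second was. Over the 12 libraries the log2 CPM of Ccl2 and Ccl7 had a Pearson r of 0.82.

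The genes most like Ccl7 by the same measure were Bend3 (0.90), Smarcc1 (0.90), Ap1ar (0.89), Alg8 (0.89) and Ranbp1 (0.88). Of the 23 NF-kB pathway and target genes listed, 21 were tested, and their median log2 fold at day 14 was 0.16. Between the arms 0 of them were called at days 14 and 21 by edgeR, against 2.29% and 0.995% of all genes tested. Between day 0 and day 14 of the IFN arm, 3 of the 21 were called by edgeR, where 10.7% of all genes tested were called: the adhesion molecule gene Vcam1 (log2 -1.52 ± 0.27) and the inhibitor family gene Nfkbiz (-1.19 ± 0.28) fell, and the kinase subunit gene Ikbkg rose (0.73 ± 0.16).

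Ccl8, a further monocyte chemoattractant gene of the same cluster (82115185 to 82116799), had its highest counts at day 0, the group through which it passed the filter. It had 31 and 39 counts in control at day 0 and 12 and 3 counts in the IFN libraries. At day 14 it had 0 and 2 counts in control and 4 and 2 with IFN, and at day 21 it had 0 in all 4 libraries. A count of 0 allows up to 3 counts. Between the arms at day 0 the log2 fold was -2.11 ± 1.04 (adjusted p = 0.997 in edgeR). Ccl11 and Ccl12, which lie between Ccl7 and Ccl8, reached at most 0.363 and 0.0285 CPM.

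Ccl5, a chemoattractant gene that T cells express at high levels (chromosome 11, 83525778 to 83530518, minus strand), reached at most 2.60 CPM. It was at 1.77 and 1.27 CPM with IFN at day 14 and at 0.763 and 0.542 CPM in control (log2 1.22 ± 0.58, adjusted p = 0.39 in edgeR). These IFN libraries lay below those of day 0 (2.12 and 2.21 CPM). Ccl5 was called in 0 of the 9 comparisons by edgeR.

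Cx3cl1 (chromosome 8, 94772009 to 94782427, plus strand) was the only gene of the 10 called lower with IFN at day 14 by edgeR. It was at 45.3 and 44.2 CPM with IFN and 94.7 and 87.8 CPM in control, and the replicates of a group lay close together. The difference was log2 -1.03 ± 0.19, adjusted p = 0.0194 in edgeR. Its promoter is printed to set beside that of Cxcl10, since these genes moved in opposite directions at day 14. In this RefSeq window (GRCm38.p6, chr8:94771930-94772229, plus strand) none of the 3 motifs was found, so it has no capitals.
Cx3cl1: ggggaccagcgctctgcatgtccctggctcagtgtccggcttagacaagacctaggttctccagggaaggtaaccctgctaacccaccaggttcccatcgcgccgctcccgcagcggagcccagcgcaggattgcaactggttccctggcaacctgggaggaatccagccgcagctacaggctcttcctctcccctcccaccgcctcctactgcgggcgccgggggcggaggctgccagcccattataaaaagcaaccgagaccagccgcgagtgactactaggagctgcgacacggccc

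In both arms Cx3cl1 was lowest at day 14. With IFN it fell from 181 and 182 CPM at day 0 (log2 -2.02 ± 0.19, adjusted p = 0.00024 in edgeR), and the call was kept whichever library was dropped. The control libraries went from 121 and 183 CPM to the values above (log2 -0.74 ± 0.19, adjusted p = 0.0767 in edgeR). That change was called by DESeq2 (log2 -0.73, adjusted p = 0.0158, 7.19% of all genes tested) and by edgeR without the filter on low counts (0.0427, 4.43%). Without both libraries that stood apart it was log2 -0.99. The change of the IFN effect between these days was -1.29 ± 0.27 (adjusted p = 0.078 in edgeR). DESeq2 called it (adjusted p = 0.00204), and without both of those libraries it was -1.03. At day 21 the IFN libraries were at 90.9 and 91.8 CPM and the control libraries at 138 and 147 CPM. These groups did not overlap, as in 3 of the 10 chemokine genes and 39.3% of all genes tested, and the fold was not called (log2 -0.64 ± 0.19, adjusted p = 0.194 in edgeR). Dropping control replicate 1 or 2 of day 0, which are not in this comparison, gave log2 folds of -0.64 and -0.63. The fold was -0.67 without control replicate 1 of day 21 and -0.61 without both libraries that stood apart. DESeq2 called the day 21 difference (adjusted p = 0.0497, 3.67% of all genes tested).

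The day 14 call of Cx3cl1 was lost when control replicate 1 of day 14 (adjusted p = 0.118) or IFN replicate 1 or 2 of day 14 (0.184 and 0.217) was dropped. Over the 12 libraries dropped in turn, its log2 fold ran from -1.08 to -0.97. The sheddase genes Adam10 (log2 -0.18 ± 0.17) and Adam17 (-0.19 ± 0.14) were not called between the arms at day 14. Of the 10 proteases listed that cleave or shed chemokines, 9 were tested, and the gelatinase gene Mmp2 fell with IFN at day 14 (log2 -1.004 ± 0.23, adjusted p = 0.049 in edgeR). In the IFN arm between day 0 and day 14, Mmp2 (-1.17 ± 0.23), Mmp9 (-4.44 ± 1.13) and Mmp3 (-2.94 ± 0.81) fell and the collagenase gene Mmp13 rose (2.46 ± 0.31), each called by edgeR (10.7% of all genes tested). In control over the same days Mmp13 (3.85 ± 0.33) and Mmp8 (3.82 ± 0.83) rose (2.38% of all genes called).

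Cxcl12 (chromosome 6, 117168535 to 117181367, plus strand) encodes the ligand of CXCR4 that retains stem cells in the marrow. At day 0 it was at 339.7 and 448 CPM in control and 431 and 455 CPM in the IFN libraries. In the IFN arm it fell to 142 and 146 CPM at day 14 (log2 -1.62 ± 0.44, adjusted p = 0.0411 in edgeR). Only dropping control replicate 1 or 2 of day 14 left that call in place. Dropping any of the other 10 libraries gave an adjusted p of 0.0502 to 0.235, and dropping both control libraries that stood apart gave 0.105.

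The control libraries of day 14 differed for Cxcl12, at 184 CPM in replicate 1, the library with high Egln3, and 622 CPM in replicate 2. Both lay above the IFN libraries of that day (log2 -1.49 ± 0.44, adjusted p = 0.135 in edgeR). The difference was called without replicate 1 (log2 -2.11, adjusted p = 0.00823) and by DESeq2 (0.0122). At day 21 the arms overlapped, at 144 and 94.4 CPM in control and 106 and 91.996 CPM with IFN (log2 -0.26 ± 0.43). The genes most like Cxcl12 over the 12 libraries, by Pearson r of log2 CPM, were Kif5a (0.98), Ramp2 (0.96), Pcdhga3 (0.96), Mab21l1 (0.96) and Cradd (0.96).

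Ackr3, the scavenging receptor for CXCL12, rose in the IFN arm between day 0 and day 14 (log2 1.56 ± 0.39, adjusted p = 0.03 in edgeR), from 37.29 and 39.03 CPM to 110.0 and 115 CPM. In control it went from 23.9 and 34.4 CPM to 98.6 and 39.04 CPM (log2 1.24 ± 0.39, adjusted p = 0.137 in edgeR). The signalling receptor gene Cxcr4 was at no more than 0.616 CPM in any library.

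Cxcl5, Ppbp and Cxcl1 belong to a cluster of CXC chemokine genes on chromosome 5, between 90759360 and 90905938, in the order Cxcl5, Ppbp, Pf4, Cxcl3, Cxcl15, Cxcl1 and Cxcl2. Cxcl5 (90759360 to 90761624, plus strand) encodes a neutrophil chemoattractant. In the IFN arm it fell from 128 and 157 CPM at day 0 to 15.0 and 20.1 CPM at day 14 (log2 -3.02 ± 0.85, adjusted p = 0.0468 in edgeR). The libraries of these days were well apart, and those of day 21 (33.3 and 24.1 CPM) lay between them. Only dropping control replicate 1 or 2 of day 21 left the call in place, and dropping any of the other 10 libraries gave an adjusted p of 0.0648 to 0.311. Without both libraries that stood apart the log2 change was -3.02, and the call was lost with a replicate block (0.0584).

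In control Cxcl5 was at 76.4 and 125 CPM at day 0 and at 57.0 and 52.3 CPM at day 14, above the IFN libraries of day 14 (log2 -1.64 ± 0.81, adjusted p = 0.409 in edgeR). Dropping control replicate 1 or 2 of day 21, which are not in this comparison, gave log2 folds of -1.663 and -1.656. Without both libraries that stood apart the fold was -1.657. The day 14 difference was called by edgeR with only the groups compared (adjusted p = 0.0171, 4.27% of all genes tested). It was also called without the filter on low counts (2.08e-09, 3.46%). The control libraries of day 21 lay 14.2-fold apart, at 272 CPM in replicate 1 and 19.2 CPM in replicate 2, the library with high Hspa5. The fold of IFN against control at day 21 (log2 -2.34 ± 0.82, adjusted p = 0.263 in edgeR) was -3.25 without replicate 2 (adjusted p = 0.00107) and 0.60 without replicate 1.

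Ppbp (90768518 to 90770063, plus strand) encodes pro-platelet basic protein, the precursor of a neutrophil chemoattractant stored in platelets. It had the largest called fall of the 10 in the IFN arm between day 0 and day 14 in edgeR. The IFN libraries held 630 and 651 counts at day 0 (19.0 and 18.0 CPM) and 12 and 14 counts at day 14 (0.327 and 0.454 CPM). The change was log2 -5.56 ± 1.08, adjusted p = 0.00973 in edgeR. It was lost as a call when IFN replicate 1 of day 0 (0.0537) or IFN replicate 1 or 2 of day 14 (0.125 and 0.108) was dropped, with log2 values from -5.82 to -5.36 over the 12.

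Control replicate 1 of day 0 had 61 counts of Ppbp (1.88 CPM) where replicate 2 had 728 (18.3 CPM). At day 14 the control libraries had 2.47 and 1.45 CPM (log2 -2.37 ± 0.91, adjusted p = 0.225 in edgeR). Without replicate 2 of day 0 that change was 0.06, and without both libraries that stood apart it was -3.21. Between the arms at day 14 the difference was not called (log2 -2.32 ± 1.02, adjusted p = 0.347 in edgeR). Without both libraries that stood apart, which are not in this comparison, it was -2.34. At day 21 Ppbp was at 0.342 and 0.75 CPM with IFN and 6.59 and 1.52 CPM in control (log2 -2.90 ± 0.99, adjusted p = 0.257 in edgeR). Without both of those libraries this difference was log2 -3.60. Without the filter on low counts edgeR called the difference at day 14 (adjusted p = 3.74e-05, 3.46% of all genes) and at day 21 (1.14e-08, 3.06%). That fit also called the change in control between day 0 and day 14 (9.34e-07, 4.43%), while DESeq2 called none of these. Of the 6 megakaryocyte and platelet markers, Gp1bb and Gp6 were at 0 in all 12 libraries, and the sum of the 6 was 6.28 to 6.498 CPM in the IFN libraries of day 0, 7.14 to 7.43 CPM in those of day 14 and 4.52 to 9.404 CPM in the control libraries. Their part in the levels of Ppbp was not tested.

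The adjacent gene Pf4, platelet factor 4, had 110 counts in the IFN libraries of day 0 and 2 at day 14, a 53.6-fold difference per library size (95% counting interval 14.501 to 448, adjusted p = 0.0408 in edgeR). Cxcl15 had 88 counts in the IFN libraries of day 0 and 0 at day 14, at least 28.6-fold lower with the day 14 group set at 3 counts (adjusted p = 0.00429 in edgeR). Cxcl5, Ppbp, Pf4 and Cxcl15 of this cluster thus fell over the same step. Cxcl1 was not called, and Cxcl2 and Cxcl3 each had 0 counts at day 0 and 2 at day 14. In control over these days the mean of Pf4 went from 0.571 to 0.137 CPM and that of Cxcl15 from 0.477 to 0.182 CPM, neither called by edgeR. Over the 12 libraries the log2 CPM of Cxcl5 and Ppbp had a Pearson r of 0.86, and that of Cx3cl1 and Ppbp, on different chromosomes, 0.85.

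Cxcl1 (90891241 to 90893115, plus strand), also a neutrophil chemoattractant gene and a textbook target of NF-kB, had few counts. It had 13 and 17 counts in control at day 14 and 2 and 2 with IFN (log2 -2.86 ± 1.42, adjusted p = 0.412 in edgeR). In control at day 21 it had 26 counts in replicate 1 and 0 in replicate 2, against 2 and 2 with IFN. Its promoter is shown as that of a gene with a kappaB motif and a low level in these libraries (GRCm38.p6, chr5:90890995-90891294, plus strand). The capitals mark a run in which the kappaB motif matches on each strand, starting at positions -71 and -70.
Cxcl1: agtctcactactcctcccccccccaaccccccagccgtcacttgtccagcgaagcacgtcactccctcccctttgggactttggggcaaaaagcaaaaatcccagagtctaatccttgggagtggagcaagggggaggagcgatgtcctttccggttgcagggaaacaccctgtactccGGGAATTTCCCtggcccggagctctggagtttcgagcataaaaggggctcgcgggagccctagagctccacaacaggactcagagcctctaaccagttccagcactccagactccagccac

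**Figure D3:**
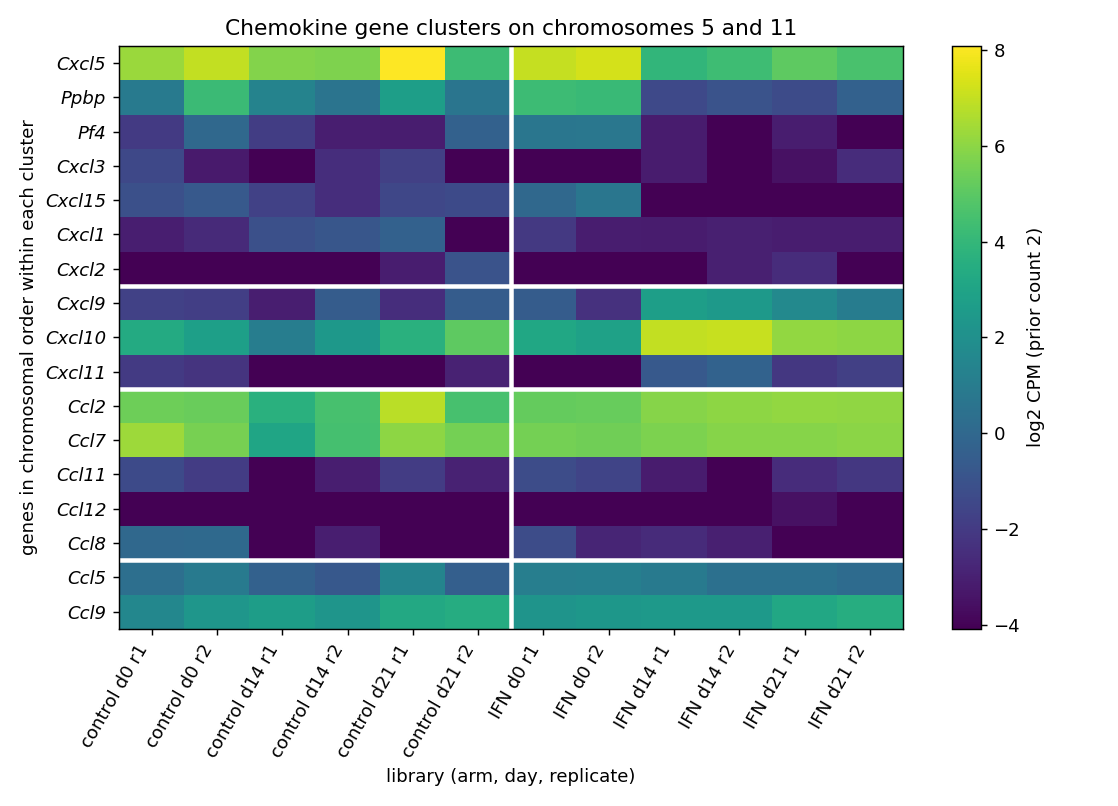
Log2 CPM (prior count 2, colour) of chemokine genes in chromosomal order within 4 clusters, separated by white lines, in the 12 libraries (columns: arm, day d and replicate r). In the IFN arm the Cxcl9, Cxcl10 and Cxcl11 rows are higher at day 14 than at day 0, and the Cxcl5, Ppbp, Pf4 and Cxcl15 rows lower.

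Between day 0 and day 14 of the IFN arm 5 of the 10 genes were called, against 10.7% of all genes tested. Cxcl10 rose (5.18% of all genes), and Cx3cl1, Cxcl12, Cxcl5 and Ppbp fell (5.56%). The libraries of the days did not overlap for 8 of the 10, against 74.4% of all genes, and the median log2 change of the 10 was -1.12 against 0.01 over all genes. Of the 28 other chemokine ligand genes 12 could be tested, of which 2 rose (Cxcl9, and Cxcl11, which was tested only because of its day 14 libraries) and 2 fell (Pf4 and Cxcl15). Of 24 chemokine receptor genes 9 were tested, and Ackr3 and the atypical receptor gene Ccrl2 rose (Ccrl2 log2 4.35 ± 0.90, adjusted p = 0.0128 in edgeR).

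In control over the same days 1 of the 10 chemokine genes was called, Ccl7, against 2.38% of all genes tested. The libraries of the days did not overlap for 8 of the 10, against 42.5% of all genes. None of the other ligands and receptors tested was called in control by edgeR. The change of the IFN effect from day 0 to day 14 was called for 1 of the 10, Cxcl10, and 0.596% of all genes tested. Among the factors upstream, 7 of the 17 interferon signalling genes tested were higher with IFN at day 14 and 0 lower (1.3% and 0.995% of all genes tested). The smallest adjusted p values were those of Irf7 (log2 7.21 ± 0.42), Irf9 (2.83 ± 0.22) and Stat2 (3.57 ± 0.32). At day 21, where 5 of the 17 and 0.839% of all genes tested were higher, these genes had log2 folds of 5.43 ± 0.38, 2.10 ± 0.21 and 2.61 ± 0.30.

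From day 14 to day 21, 0 of the 10 genes were called in the IFN arm by edgeR with the spread shared by both arms, where 0% of all genes tested were called, and 2 of the 10 and 6.54% of all genes had an unadjusted p below 0.05. With only the 4 libraries compared, whose replicates lie close together, 4 of the 10 and 28.9% of all genes were called. In that fit Cx3cl1 (log2 1.02) and Cxcl5 (0.71) were higher at day 21, and Cxcl10 (-0.95) and Cxcl12 (-0.55) lower. DESeq2 called Cx3cl1 alone among the 10 (log2 1.04, adjusted p = 0.000804) and 0.659% of all genes.

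In control over these days 0 of the 10 were called by edgeR (0.0289% of all genes), 6 had an unadjusted p below 0.05 (17.8% of all genes) and DESeq2 called 5 (4.88%). By DESeq2, Cxcl10 (log2 2.69), Ccl2 (1.93), Ccl7 (1.86) and Cx3cl1 (0.66) were higher at day 21 and Cxcl12 (-1.75) lower. Between the arms at day 21, 0 of the 10 were called by edgeR (0.995% of all genes), 4 had an unadjusted p below 0.05 (13.1% of all genes), and DESeq2 called Cxcl10 (log2 1.498) and Cx3cl1 (-0.67) and 3.67% of all genes.

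Levels of different genes were compared per kilobase of annotated exons (RPKM, mean of 2 libraries). Annotated exons together covered all 2252 bases of the Cxcl10 gene, but 801 of 1814 bases for Ccl7 and 1138 of 1883 for Ccl2. The order of genes below depends on these lengths, which may differ from those of the transcripts present and would then set Cxcl10 too low. In control at day 0 the highest were Ccl7 (78.4 RPKM), Cxcl5 (54.0), Cxcl12 (48.2), Cx3cl1 (38.7) and Ccl2 (36.1), and neighbours in this order overlapped between libraries. With IFN at day 14 the order was Ccl7 (68.0 RPKM), Cxcl10 (57.0), Ccl2 (53.6), Cxcl12 (17.6), Cx3cl1 (11.4) and Cxcl5 (9.41), and among these only the neighbours Cxcl10 and Ccl2 overlapped. Cxcl10 thus held the second place with IFN at day 14 and the seventh in both groups of day 0 and in control at day 14. At day 21 with IFN it was the third, at 29.6 RPKM, after Ccl7 (75.8) and Ccl2 (60.1), each apart from the next in both libraries. In control at day 21 Cxcl5 (78.0 RPKM), Ccl7 (69.2) and Ccl2 (59.2) came first and overlapped.

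**Figure D4:**
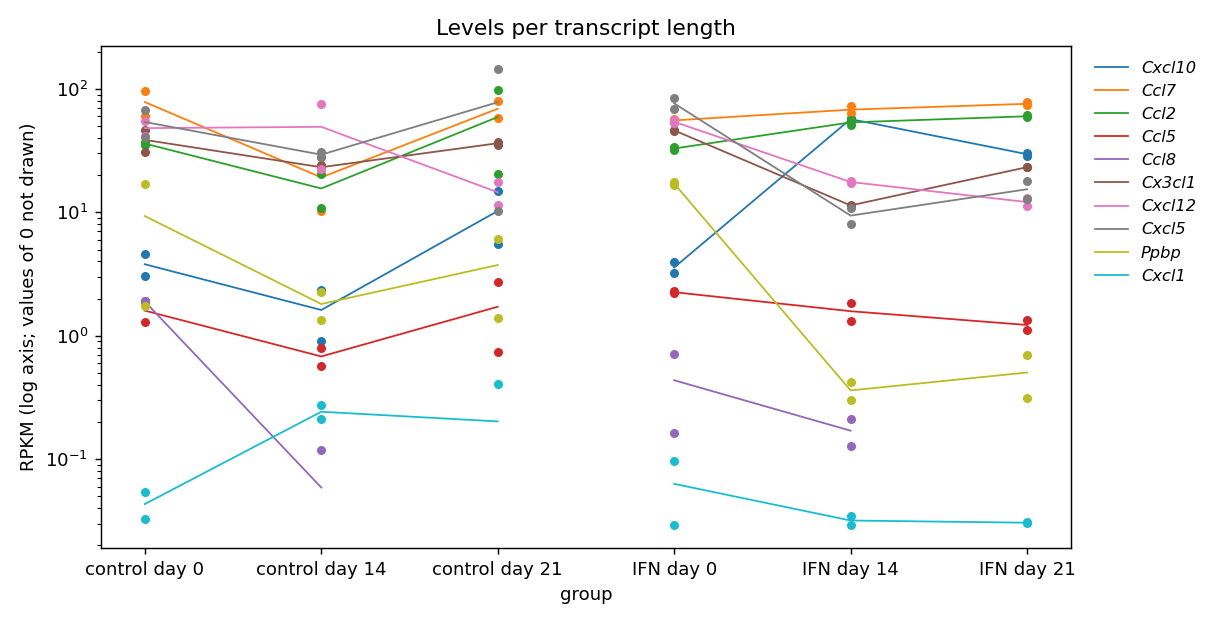
Levels per kilobase of exon (RPKM, log axis; values of 0 not drawn) in the 6 groups, with a point for each library and lines through group means within each arm. Cxcl10 moves from 3.58 RPKM with IFN at day 0 to 57.0 at day 14, past Cxcl12, Cx3cl1 and Cxcl5, while Ccl7 and Ccl2 stay among the highest in the IFN arm.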

How the data were processed

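The authors deposited raw counts of reads per gene symbol for 12 libraries. Per the submitters' processing notes these come from HISAT2, SAMtools and featureCounts on mm10, without versions. The annotation and the use of strand are not given in the sources used here. Reads of overlapping genes (Cxcl10 with Art3, and Ccl2 with Gm17268) can therefore not be assigned with certainty. In R 4.3.3, edgeR 4.0.16 was run on these counts with filterByExpr over the 6 groups (17289 genes), TMM scaling, a mean for each group, robust quasi-likelihood testing (6 residual degrees of freedom) and Benjamini-Hochberg adjustment over all genes tested. The SE is the log2 fold change divided by the square root of F. CPM used TMM-scaled library sizes, and log2 CPM a prior count of 2. RPKM used the union of exons in GENCODE release M21, also the source of gene positions. Groups with at most 3 summed counts were described by counts.

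There were 9 comparisons of 2 libraries per group. The alternatives were RLE scaling, DESeq2 1.42.0, no filter, only the groups compared, a replicate block and each of the 12 libraries dropped in turn, where a group left with 1 library is assumed to vary like the others. Dropping both control libraries that stood apart was added after the data were seen. A library outside a comparison bears on its call only through the filter, the scaling and the shared spread. The procedure was tested on simulated data in which all libraries had the same spread. How it behaves when the arms differ in spread, as they do here, was not tested. The 10 genes and the pathway and marker lists were chosen with earlier results of these data known. All 10 genes are named. Of each pathway list up to 4 called genes per comparison are named by adjusted p (1 such gene is not reported here), and for Cxcl10, Cxcl12 and Ccl7 the 5 genes of highest correlation. Other genes (markers, genes that were not called, and Hspa5, CT010467.1 and Egln3) were chosen after their values were seen.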

Additional observations from a re-analysis of the deposited data

Results flagged for a closer look

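The difference in Cxcl10 between the arms was not the same at days 0 and 14. It is not stated whether the IFN libraries of day 0 had been exposed. The call below was lost when IFN replicate 1 or 2 of day 0 or IFN replicate 2 of day 14 was dropped. The log2 fold of IFN against control was 5.22 ± 0.69 higher at day 14 than at day 0 (edgeR interaction contrast, adjusted p = 0.0116), and both IFN libraries of day 14 were above both control libraries of that day while the libraries of day 0 overlapped.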

How the results depend on the processing

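Of 1406 fold changes of single chemokine genes under the alternatives, 1240 kept their direction and their side of the threshold, 48 were no longer called, 91 became called and 27 changed sign. The call of Cxcl10 at day 14 held under all 5 alternatives and with each of the 12 libraries dropped. Counts of the 10 genes called that moved by more than 1.5 times are given here with the percentage of all genes tested that the same fit called. DESeq2 called 5 (5.77%) for IFN against control at day 14, 2 (3.67%) for IFN against control at day 21, 3 (7.19%) for control day 14 against day 0, 5 (4.88%) for control day 21 against day 14, 1 (0.659%) for day 21 against day 14 with IFN, 3 (2.75%) for the change of the IFN effect from day 0 to day 14 and 1 (0.179%) for its change from day 14 to day 21. Without the filter on low counts edgeR called 7 (3.46%) for IFN against control at day 14, 3 (3.06%) for IFN against control at day 21, 7 (4.43%) for control day 14 against day 0, 5 (4.2%) for control day 21 against day 14, 2 (0.807%) for day 21 against day 14 with IFN, 7 (2.44%) for the change of the IFN effect from day 0 to day 14 and 4 (1.14%) for its change from day 14 to day 21. With only the groups compared it called 0 (0.685%) for control day 14 against day 0, 4 (28.9%) for day 21 against day 14 with IFN and 2 (0.834%) for the change of the IFN effect from day 0 to day 14. Dropping both control libraries that stood apart, chosen after seeing the data, gave 5 (15%) for IFN against control at day 14, 4 (4.73%) for IFN against control at day 21, 3 (10.2%) for control day 14 against day 0, 5 (3.9%) for control day 21 against day 14, 1 (4.03%) for day 21 against day 14 with IFN and 3 (3.27%) for the change of the IFN effect from day 0 to day 14. With libraries dropped in turn, the counts ran from 1 to 5 (0.604 to 6.46%) for IFN against control at day 14, from 0 to 2 (0.319 to 20.5%) for IFN against control at day 21, from 0 to 4 (0.843 to 8.35%) for control day 14 against day 0, from 0 to 6 (0 to 25.3%) for control day 21 against day 14, from 2 to 5 (2.47 to 20.9%) for day 14 against day 0 with IFN, from 0 to 1 (0 to 0.551%) for day 21 against day 14 with IFN, from 0 to 4 (0.0849 to 2.61%) for the change of the IFN effect from day 0 to day 14 and from 0 to 2 (0 to 13.7%) for its change from day 14 to day 21, and stayed at 0 for IFN against control at day 0 (0 to 0.265%). The depth of Cxcl1 and Ccl8, with at most 39 counts in a library, limits their folds. The sign of some log2 folds changed when a library was dropped. Some of these folds were small, and others, from replicates far apart, were large in both directions. For IFN against control at day 0 the folds ran for Cxcl10 from -0.35 to 0.24, Cxcl1 from -0.54 to 1.12, Cxcl12 from -0.0097 to 0.38 and Cx3cl1 from -0.0072 to 0.59. For IFN against control at day 21 the folds ran for Cxcl1 from -3.655 to 4.04, Cxcl5 from -3.25 to 0.60, Cxcl12 from -0.54 to 0.087, Ccl2 from -0.72 to 1.58, Ccl5 from -1.15 to 0.75 and Ccl7 from -0.092 to 0.40. For control day 14 against day 0 the folds ran for Cxcl12 from -1.10 to 0.66 and Ppbp from -3.215 to 0.060. For control day 21 against day 14 the folds ran for Cxcl1 from -6.96 to 0.73, Cxcl5 from -1.54 to 2.305 and Ppbp from -0.40 to 1.74. For day 14 against day 0 with IFN the folds ran for Cxcl1 from -1.57 to 0.10 and Ccl8 from -2.02 to 0.076. For day 21 against day 14 with IFN the folds ran for Cxcl1 from -0.16 to 0.071 and Ppbp from -0.18 to 0.95. For the change of the IFN effect from day 14 to day 21 the folds ran for Cxcl1 from -0.78 to 6.92, Cxcl5 from -1.60 to 2.26 and Ppbp from -1.26 to 0.89. Dropping both control libraries gave a changed sign of 0.24 for Cxcl10 in IFN against control at day 0, -0.016 for Cxcl12 in IFN against control at day 0, -0.014 for Cx3cl1 in IFN against control at day 0, -0.72 for Ccl2 in IFN against control at day 21, -0.092 for Ccl7 in IFN against control at day 21, -0.14 for Cxcl12 in control day 14 against day 0, 0.73 for Cxcl1 in control day 21 against day 14 and -0.78 for Cxcl1 in the change of the IFN effect from day 14 to day 21. The cause was not tested.

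Replicates with the same number deviated together weakly or not at all. Over 15 pairs of groups the correlation of their differences ran from -0.051 to 0.11, and 2 were over 0.1. The pairs within the control arm were the highest (0.107, 0.080 and 0.110), and the highest of the others was 0.021. With a replicate block 2 of the 10 genes were called between the arms at day 14 (1.91% of all genes tested), where the call of Ccl7 was lost. Between day 0 and day 14 with IFN 4 were called (9.49%), where that of Cxcl5 was lost. The log2 change of Cxcl12 in control from day 0 to day 14 was -0.012 with the block, against 0.03.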
